A study of Homo sapiens with 4 samples.

Results

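The 1977 peaks on chromosome 12 are described here, out of 78744 ATAC-seq peaks listed for 4 libraries of the OVSAHO ovarian cancer cell line. They are all the peaks that the deposited lists place on that chromosome, 544 of 23813 narrow peaks and 1433 of 54931 broad peaks. These totals count all contigs, while list shares and merged regions below count chromosomes 1 to 22 and X only. Chromosome 12 was chosen because test and control libraries of these data differ in how many of their peaks it holds, so its share is given as a description, with no test. The 2 test libraries, test 1 and test 2, came from cells labelled OVSAHO-A2-siA4, with the genotype "SMARCA2 stable, SMARCA4 knockdown", in which SMARCA2 was upregulated and SMARCA4 downregulated. The 2 control libraries, control 1 and control 2, came from cells labelled OVSAHO-Ctrl-siNC, with the genotype "WT". Both groups were grown with carboplatin at 25 µM for 2 days, so cells without the drug were not analysed here. The labels do not say that replicates came from separate cultures, so the spread between them may be technical.

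ATAC-seq finds open chromatin with a transposase that cuts DNA and inserts sequencing adapters where nucleosomes leave it free. SMARCA2 and SMARCA4 are the alternative motor subunits of the SWI/SNF complexes, which slide or evict nucleosomes with the energy of ATP. Carboplatin crosslinks DNA. Chromosome 12 has a short arm, 12p, and a much longer arm, 12q, on which the HOXC and keratin gene clusters lie. Around its centromere lie repeats, where short reads are hard to place. The files carry hg19 coordinates, and a gene annotation of that build was not used here, so sites are named by position and arm, with no gene and no exon or intron assigned.

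Narrow lists use nucleosome-free fragments only and broad lists use every fragment, each library being called on its own, so a deeper library can call weaker sites. The narrow lists rested on 6146272 and 6885374 fragments in test 1 and test 2, against 15828837 and 7531794 in control 1 and control 2. The broad lists rested on 22432549 and 23596152 fragments in the test libraries, against 31515662 and 25452784 in the control libraries. Control 1 stood apart. Its mean fragment size in the broad list was 131 bp, against 178 to 182 bp in the other 3 libraries. Control 1 also called 10360 narrow peaks on chromosomes 1 to 22 and X, against 3402 to 5442. Values without control 1 are therefore given beside the main results.

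Chromosome 12 held 130 narrow peaks in test 1 and 137 in test 2, against 132 in control 1 and 145 in control 2. The numbers of narrow peaks overlapped between the groups, with a mean of 133.5 ± 4.95 in test and 138.5 ± 9.19 in control (SD, n = 2 each). As shares of the lists they did not overlap. Chromosome 12 took 3.82% (95% exact interval 3.20 to 4.52) of the narrow list of test 1 and 3.28% (2.76 to 3.87) of test 2, against 1.27% (1.07 to 1.51) of control 1 and 2.66% (2.25 to 3.13) of control 2. The mean share was 3.55% ± 0.380 in test and 1.97% ± 0.983 in control, a difference of 1.58 percentage points. The intervals of test 2 and control 2 overlapped. They cover counting error only.

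**Figure D1:**
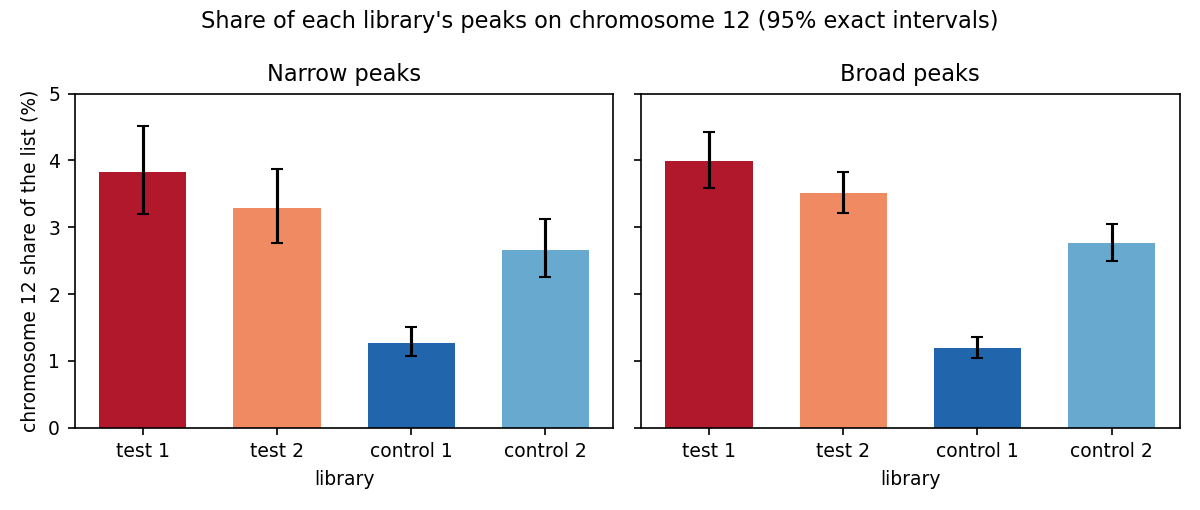
Share of each library's peaks that lie on chromosome 12, in percent of the list, for narrow peaks (left) and broad peaks (right); bars are single libraries and lines are 95% exact binomial intervals. Both test bars stand above both control bars in each panel, and control 1 is lowest at 1.27% and 1.19%.

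Broad peaks numbered 355 in test 1 and 489 in test 2, against 220 in control 1 and 369 in control 2. Their shares were 3.99% (3.59 to 4.42) and 3.51% (3.21 to 3.83) in the test libraries, against 1.19% (1.04 to 1.36) and 2.76% (2.49 to 3.06) in the control libraries. The mean was 3.75% ± 0.342 in test and 1.98% ± 1.11 in control, and the 4 intervals did not overlap between the groups. The ratio of mean shares was 1.80 for narrow and 1.90 for broad peaks, in both cases the highest of 23 chromosomes. By the difference of means, chromosome 12 came second for narrow peaks, after chromosome 19 at 2.51 percentage points, and first for broad peaks. Control 1 carried a large part of the difference. Without it the difference was 0.888 percentage points for narrow and 0.986 for broad peaks, in the same direction. The ratio to control 2 alone was 1.33 for narrow peaks, second to chromosome 21 at 1.53, and 1.36 for broad peaks, the highest. Among narrow peaks with a −log10 q of 5 or more, the shares were 3.38% and 2.76% in test, against 1.77% and 2.56% in control, a difference of 0.908 percentage points.

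Per 1000000 fragments, chromosome 12 held 21.2 narrow peaks in test 1 and 19.9 in test 2, against 8.34 in control 1 and 19.3 in control 2. The same density of broad peaks was 15.8 and 20.7 in the test libraries, against 6.98 and 14.5 in the control libraries. On this scale the 2 test libraries and control 2 lay close together for narrow peaks, and control 1 lay far below them.

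The length, the fold enrichment and the share of strong peaks overlapped between the groups, but fold enrichment relative to the other chromosomes did not for narrow peaks. Narrow peaks had a median length of 94 and 81 bp in the test libraries, against 81 and 91 bp in the control libraries. Broad peaks had a median length of 348 and 325 bp in the test libraries, against 249.5 and 362 bp in the control libraries. The median fold enrichment, the authors' ratio of fragments over the peak to the local background, was 5.77 and 5.62 for narrow peaks in test, against 5.60 and 5.92 in control. For broad peaks it was 4.27 and 3.77 in test, against 3.69 and 4.11 in control. Divided by the median over the other chromosomes of the same library, narrow fold enrichment was 0.970 and 0.991 in test, against 1.096 and 1.023 in control, so it was lower in both test libraries. The mean difference was −0.0785, and −0.0421 without control 1. The same ratio for broad peaks overlapped, at 1.06 and 1.04 in test, against 1.04 and 1.11 in control. Of the narrow peaks, 40% and 32.8% in test had a −log10 q of at least 5, against 35.6% and 40% in control.

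Most narrow peaks also lay within a broad peak of their own library, except in control 1. The share was 70% (95% exact interval 61.3 to 77.7) in test 1 and 62.0% (53.4 to 70.2) in test 2, against 36.4% (28.2 to 45.2) in control 1 and 61.4% (52.9 to 69.3) in control 2. On the other chromosomes the same share was 71.2% and 60.8% in the test libraries, against 42.8% and 67.3% in the control libraries, so control 1 was lowest there as well.

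The arms were compared next, with the boundary at 35 Mb. Of the broad peaks on chromosome 12, 21.1% and 22.7% lay on 12p in the test libraries, against 15.5% and 16.8% in the control libraries. The groups did not overlap, and the mean was 21.9% ± 1.11 in test and 16.1% ± 0.953 in control. The direction turned among strong peaks, at −log10 q of 5 or more, where the difference was −5.81 percentage points. Without control 1 it was 5.11 for all broad peaks. Narrow peaks showed no such split, with 19.2% and 17.5% on 12p in the test libraries, against 16.7% and 20% in the control libraries. As shares of the whole list, both arms were higher in test. For broad peaks 12p took 0.843% and 0.796% of the test lists, against 0.184% and 0.464% of the control lists, and 12q took 3.15% and 2.71% of the test lists, against 1.01% and 2.30% of the control lists.

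Along the chromosome, cut into 27 bins of 5 Mb, the share of broad peaks was higher in test in 26 bins on the means. In 21 of the 27 bins both test libraries lay above both control libraries, and in 0 did both lie below, where 8.08% and 14.6% of the bins on other chromosomes did so. For narrow peaks the mean was higher in test in 21 bins, with both test libraries above both control libraries in 14 and below in 1. Among bins of other chromosomes 15.8% and 18.9% did so. Since chromosome 12 was chosen on these calls, the counts only describe how its excess is spread.

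The excess was uneven. It was widest from 45 to 60 Mb, in the upper part of 12q. From 55 to 60 Mb, 37 and 38 broad peaks were called in the test libraries, against 7 and 31 in the control libraries, or 0.416% and 0.273% of the test lists, against 0.038% and 0.232% of the control lists. The bin from 50 to 55 Mb held 0.416% and 0.280% of the test lists, against 0.054% and 0.277% of the control lists, so test 2 and control 2 were nearly equal there. From 45 to 50 Mb the values were 0.270% and 0.258% in test, against 0.038% and 0.157% in control.

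Narrow peaks peaked in the same place. From 55 to 60 Mb, test 1 held 0.617% and test 2 held 0.360% of their narrow lists there, against 0.058% in control 1 and 0.276% in control 2. From 50 to 55 Mb the shares were 0.558% and 0.408% in test, against 0.068% and 0.276% in control. The third widest difference was on 12p, from 5 to 10 Mb, with 8 and 9 narrow peaks in the test libraries, against 1 and 6 in the control libraries. Together, 45 to 60 Mb held 46 and 41 narrow peaks of the test libraries, against 16 and 34 of the control libraries. These were 35.4% and 29.9% of the narrow peaks on chromosome 12 in test, against 12.1% and 23.4% in control. For broad peaks the same part overlapped between the groups, at 27.6% and 23.1% in test, against 10.9% and 24.1% in control, with control 2 above test 2.

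**Figure D2:**
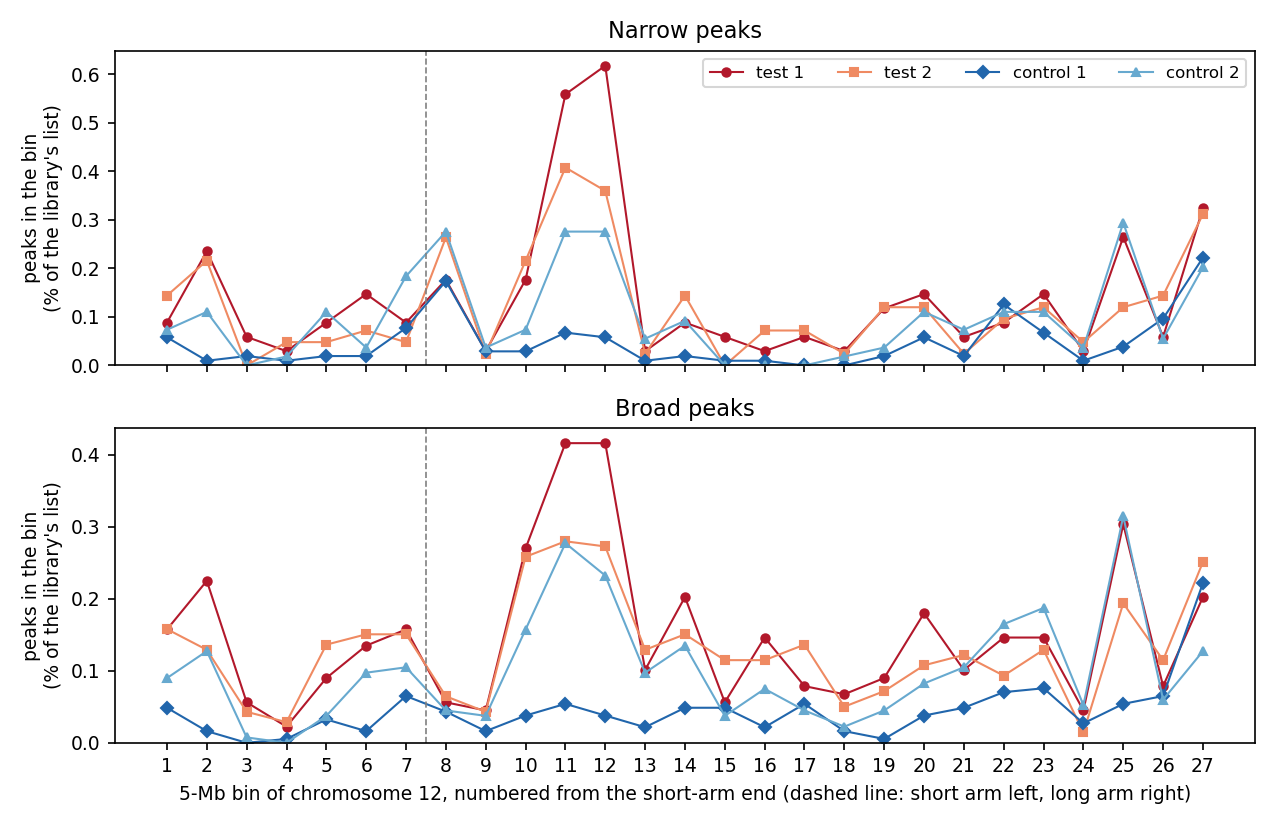
Peaks in each 5-Mb bin of chromosome 12 as a percentage of the library's list, for narrow peaks (top) and broad peaks (bottom), one line per library; the dashed line separates the short arm (left) from the long arm (right). In both panels the test lines reach their highest points in bins 11 and 12 (50 to 60 Mb), control 1 is low through most bins, and in the broad panel control 2 stands highest in bins 22 to 25.

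The smallest differences in broad share were all on distal 12q. From 115 to 120 Mb the shares were 0.0450% and 0.0143% in test, against 0.0271% and 0.0524% in control. From 105 to 110 Mb they were 0.146% and 0.0933% in test, against 0.0703% and 0.165% in control, and from 110 to 115 Mb 0.146% and 0.129% in test, against 0.0757% and 0.187% in control. All 3 overlapped. The smallest in narrow share were from 30 to 35 Mb, at 0.0882% and 0.0480% in test, against 0.0772% and 0.184% in control, then from 105 to 110 Mb, at 0.0882% and 0.0959% in test, against 0.125% and 0.110% in control, the 1 bin lower in both test libraries. From 40 to 45 Mb, 1 and 1 narrow peaks in test stood against 3 and 2 in control.

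In the stretch from 100 to 125 Mb as a whole, 66 and 77 broad peaks were called in test, against 51 and 110 in control. As shares of the list these were 0.742% and 0.552% in test, against 0.276% and 0.824% in control, and the groups overlapped because control 2 was highest. The narrow lists gave 0.588% and 0.408% in test, against 0.261% and 0.625% in control. Within chromosome 12 the stretch took a smaller part of the broad peaks in test, 18.6% and 15.7%, against 23.2% and 29.8% in control, with no overlap. Of the narrow peaks it took 15.4% and 12.4% in test, against 20.5% and 23.4% in control.

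Both other long stretches were richer in test. From 0 to 30 Mb, 61 and 90 broad peaks in the test libraries stood against 22 and 48 in the control libraries. From 60 to 100 Mb, 82 and 122 stood against 47 and 72. Beyond 125 Mb, near the end of 12q, control 1 was not low, with 25 and 51 broad peaks in test, against 53 in control 1 and 25 in control 2. That end held 24.1% of all the broad peaks of control 1 on chromosome 12, and 6.78% to 10.4% in the other 3 libraries.

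The region around the centromere, 30 to 40 Mb, went the other way among narrow peaks. It held 9 and 13 narrow peaks in the test libraries, against 26 and 25 in the control libraries. These were 6.92% and 9.49% of the narrow peaks on chromosome 12 in test, against 19.7% and 17.2% in control. As shares of the whole lists the groups overlapped, at 0.265% and 0.312% in test, against 0.251% and 0.459% in control. Broad peaks there numbered 19 and 30 in test, against 20 and 20 in control.

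Peaks were crowded in a few windows of 1 Mb. The window from 56 to 57 Mb was the most crowded for both kinds, with 11 and 11 narrow peaks in test, against 2 and 12 in control, and 17 and 20 broad peaks in test, against 5 and 17 in control. From 38 to 39 Mb, beside the centromere, 5 and 7 narrow peaks in test stood against 13 and 12 in control. From 120 to 121 Mb, 12 and 9 broad peaks in test stood against 1 and 14 in control. In the windows at 56 and at 120 Mb, control 1 alone was low. The window at 38 Mb separated the groups.

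The local background of a peak, the fragment density that MACS2 sets around it, was recovered from the deposited pileup and fold enrichment. It scales both with the amount of DNA of a region in the reaction and with how open that region is in general, and these cannot be told apart here. Given relative to the median over peaks on other chromosomes of the same library, the background of narrow peaks on chromosome 12 was 0.830 and 0.916 in test, against 0.882 and 0.716 in control. For broad peaks it was 0.859 and 0.806 in test, against 0.802 and 0.761 in control. All 8 values lay below 1. The groups overlapped for narrow peaks. For broad peaks they did not, but test 2 and control 1 differed by little, and the difference of 0.0512 ranked 4 of 23 chromosomes. Leaving out control 1 gave differences of 0.157 for narrow and 0.0713 for broad peaks, leaving out control 2 gave −0.00893 and 0.0310, and leaving out test 1 gave 0.117 and 0.0246. Leaving out test 2 gave 0.0311 and 0.0777.

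By bin, the broad background differed most from 55 to 60 Mb, at 1.26 and 1.33 in test, against 0.789 and 0.925 in control. It was next widest from 95 to 100 Mb, at 0.936 and 0.911 in test, against 0.724 and 0.662 in control. From 50 to 55 Mb it was 1.13 and 1.10 in test, against 0.993 and 0.834 in control. The largest differences downward were nearly equal. From 105 to 110 Mb the values were 0.842 and 0.718 in test, against 1.11 and 0.735 in control, and the groups overlapped. From 35 to 40 Mb they were 0.810 and 0.846 in test, against 1.03 and 0.901 in control, lower in both test libraries. From 0 to 5 Mb they were 0.791 and 0.844 in test, against 1.004 and 0.720 in control. Of 23 bins with 3 or more broad peaks in every library, 6 had both test libraries above both control libraries and 2 had both below, beside 10.3% and 18.7% of such bins on other chromosomes. Of 10 such bins for narrow peaks, 4 were above and 0 below, beside 16.7% and 17.8%.

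The narrow background differed most from 0 to 5 Mb, at 2.36 and 1.08 in test, against 0.702 and 1.56 in control, where the groups overlapped and rested on 3 to 6 peaks. From 55 to 60 Mb it was 1.07 and 1.35 in test, against 0.858 and 0.761 in control, without overlap. From 130 Mb to the end it was 0.798 and 1.55 in test, against 0.978 and 0.789 in control. At the lower end, 120 to 125 Mb had 0.553 and 0.821 in test, against 0.906 and 0.683 in control. The bins from 35 to 40 and 110 to 115 Mb differed by −0.0235 and −0.00428, and both overlapped. Only the bin from 55 to 60 Mb was thus among the 3 widest upward for both kinds of peak.

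**Figure D3:**
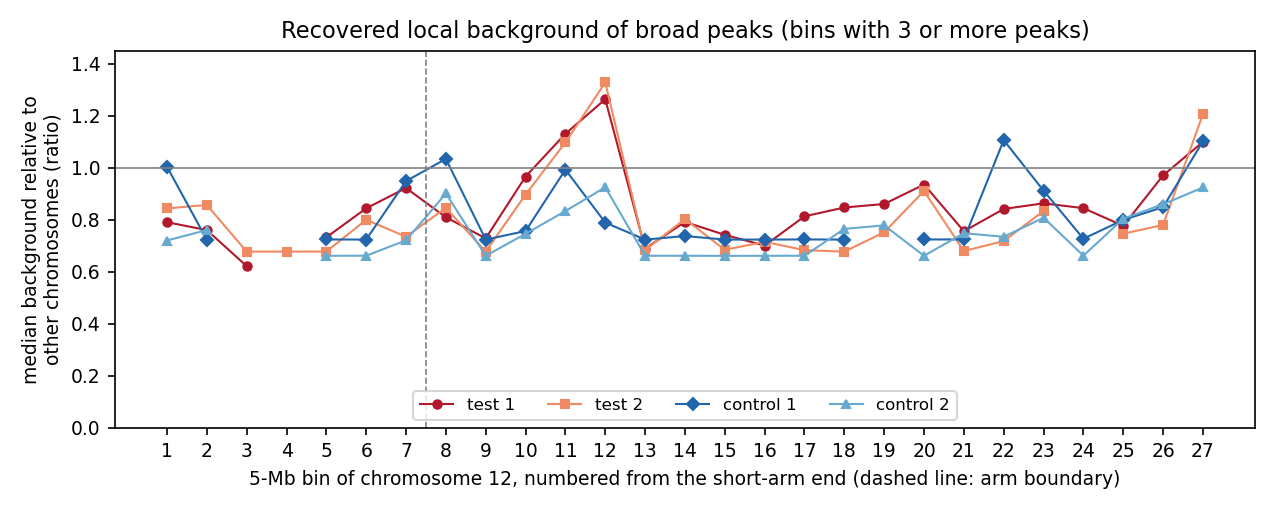
Median recovered background of broad peaks in each 5-Mb bin of chromosome 12, as a ratio to the median over other chromosomes of the same library (line at 1), one line per library; only bins with 3 or more peaks are drawn, and the dashed line is the arm boundary. In bin 12 (55 to 60 Mb) test 1 and test 2 reach 1.26 and 1.33, against 0.789 in control 1 and 0.925 in control 2.

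MACS2 does not let the local background fall below the genome-wide level of the library, called the floor here. Among broad peaks on chromosome 12, 16.1% and 31.3% lay within 5% of the floor in test, against 43.6% and 40.9% in control. On the other chromosomes the shares were 16.6% and 20.9% in test, against 21.96% and 22.6% in control. Among narrow peaks, 6.92% and 8.03% lay at the floor in test, against 24.2% and 19.3% in control. On the other chromosomes 5.71% and 7.44% of narrow peaks did so in test, against 11.1% and 8.69% in control. From 60 to 100 Mb the broad shares were 24.4% and 49.2% in test, against 80.9% and 69.4% in control. The groups did not overlap in any of these. Where a peak sits at the floor, the true background may be lower than the recovered one.

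A median over called peaks compares different sites in each library. Sites called in several libraries remove that limit, although calling them chose those that passed everywhere. Test 1, test 2 and control 2 shared 174 broad sites on chromosome 12 and 4496 elsewhere. At each, the log2 ratio of a test background to that of control 2 was taken, with the median over sites of the other chromosomes set to 0. This measure, and the stretches of the chromosome used with it, were chosen after values had been seen. The sites of one library share its depth and are not replicates.

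The background at these sites was higher in both test libraries than in control 2. The median log2 ratio was 0.39 for test 1, with quartiles of 0.16 and 0.55, and it was above 0 at 153 of 174 sites. For test 2 it was 0.32, with quartiles of 0.10 and 0.49, and it was above 0 at 147 sites. Both were the highest of 23 chromosomes, and chromosome 21 came next at 0.34 and 0.29. Chromosome 18, whose share of peaks was lower in test, stood at −0.17 and −0.12. With only sites above the floor in the libraries compared, the medians were 0.44 over 119 sites and 0.37 over 114 sites. Where control 2 sat at its floor, the ratio could hardly fall below 0. The broad test floors, 1.48 and 1.56 fragments, lie too near that of control 2, 1.72, once other chromosomes are set to 0. Counts of sites above 0 against control 2, here and below, include such sites and are raised by them.

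Fold enrichment at the same sites hardly moved, with a median log2 ratio to control 2 of −0.0047 for test 1, above 0 at 86 of 174 sites, and of −0.02 for test 2. At the 41 shared narrow sites the background medians were 0.32 for test 1 and 0.26 for test 2, above 0 at 33 and 34 sites.

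**Figure D4:**
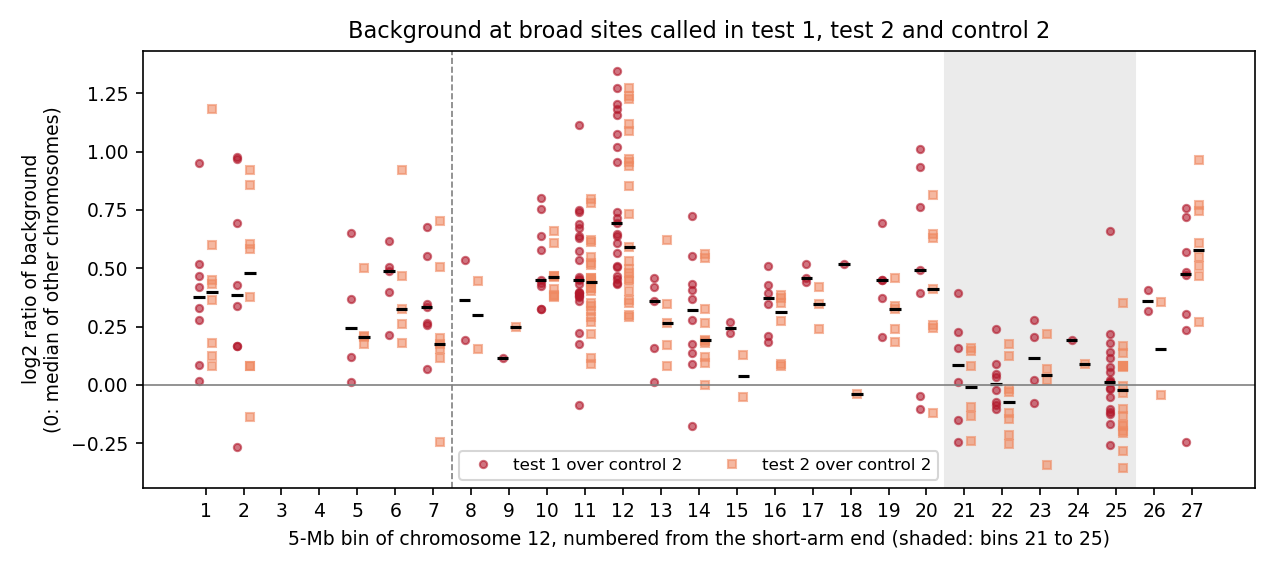
log2 ratio of recovered background, test 1 (circles) or test 2 (squares) over control 2, at the 174 broad sites of chromosome 12 called in all 3 libraries, by 5-Mb bin; bars are medians, 0 is the median of other chromosomes, and the dashed line is the arm boundary. Most points lie above 0 except in the shaded bins 21 to 25 (100 to 125 Mb), whose medians are 0.02 and −0.02.

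The shared sites followed the pattern of the calls along the chromosome in part. From 0 to 100 Mb, 127 sites had medians of 0.44 for test 1 and 0.38 for test 2, and 122 and 121 of them lay above 0. With only sites above the floor, the medians there were 0.47 and 0.45, over 83 sites each. From 45 to 60 Mb, 53 sites had medians of 0.57 and 0.46, above 0 at 52 and 53 sites. From 55 to 60 Mb alone, 21 sites had medians of 0.69 and 0.59, and all 21 lay above 0 in both libraries. All 21 were also above the floor. From 50 to 55 Mb, where broad shares of test 2 and control 2 were nearly equal, test 2 had a median of 0.44, with 23 of 23 sites above 0. From 30 to 40 Mb, where fewer narrow peaks were called in test, 6 narrow sites had medians of −0.0026 and 0.0050. The 9 broad sites there had 0.33 and 0.18.

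From 100 to 125 Mb the ratio was near 0. The 37 sites there had medians of 0.02 for test 1 and −0.02 for test 2, with 22 and 17 sites above 0. In the 18 sites from 120 to 125 Mb the medians were 0.01 and −0.02. Beyond 125 Mb it was higher again, at 0.44 and 0.53, over 10 sites. On 12p, the 25 sites from 0 to 30 Mb had medians of 0.40 and 0.36.

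Every pair of libraries was also compared at the sites that pair shares. Over the whole chromosome, the broad medians were 0.35 for test 1 over control 2 (224 sites), 0.27 for test 2 over control 2 (205 sites), 0.25 for test 1 over control 1 (24 sites) and 0.32 for test 2 over control 1 (47 sites). Within the groups they were 0.08 for test 1 over test 2 (209 sites) and 0.05 for control 1 over control 2 (29 sites). The 4 pairs between groups thus all lay above both pairs within groups. By rank among 23 chromosomes, however, broad test 1 over test 2 also ranked 1, and control 1 over control 2 ranked 8. A top rank therefore also arose between the test libraries. Narrow sites gave 0.31, 0.25, 0.33 and 0.43 for the same 4 pairs, over 56, 50, 22 and 27 sites, and 0.0003 and −0.10 within the groups, over 59 and 28 sites. These pairs share libraries and are not independent.

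The values against control 1 rest on few sites, and the stretches could not be compared well. From 0 to 100 Mb the broad median against control 1 was 0.01 for test 1, over 15 sites with 8 above 0, and 0.23 for test 2, over 24 sites with 18 above 0. From 45 to 60 Mb it was 1.43 over 2 sites for test 1 and 0.53 over 4 sites for test 2, and narrow sites gave 1.65 at 1 site and 1.054 over 2 sites, all of them above 0. From 100 to 125 Mb the broad median against control 1 was 0.31 over 2 sites for test 1 and 0.23 over 3 sites for test 2, all above 0. Narrow sites gave 0.52 and −0.09, at 1 site each. These are too few for a contrast between the stretches. The flat stretch from 100 to 125 Mb is therefore seen against control 2 alone, and the few broad sites against control 1 did not show it.

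**Figure D5:**
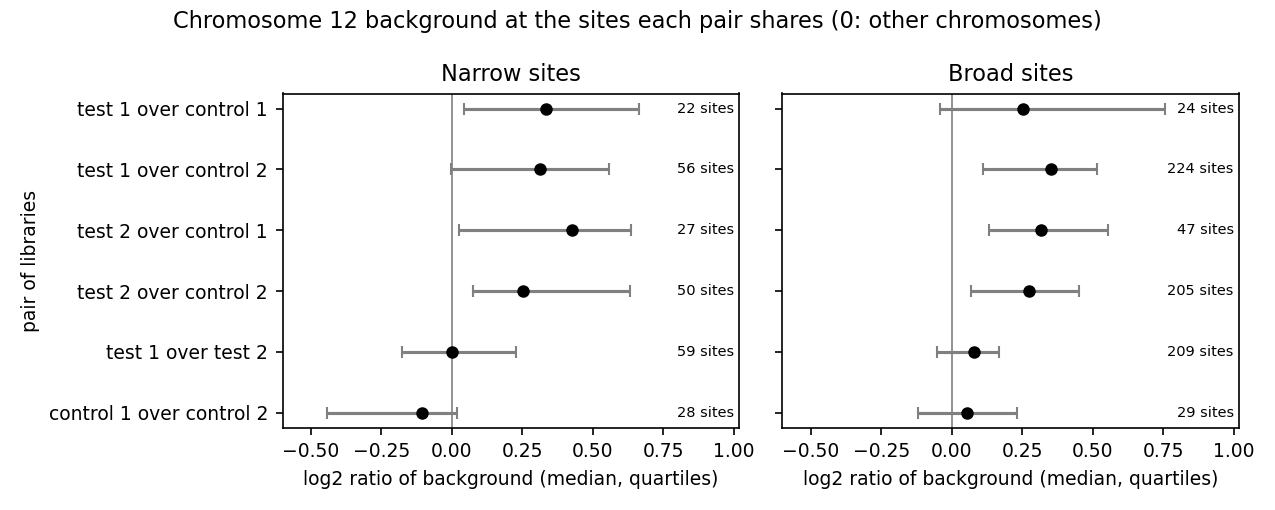
Median log2 ratio of recovered background over the chromosome 12 sites shared by each pair of libraries, for narrow (left) and broad sites (right), with quartiles as bars, the number of sites at the right and 0 at the median of other chromosomes. The 4 pairs of test over control have broad medians of 0.25 to 0.35, against 0.08 and 0.05 within the groups.

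Merging peaks that share 1 bp gave 386 narrow regions on chromosome 12, of 17554 on chromosomes 1 to 22 and X, and 914 broad regions of 36726. Most were called in a single library, 75.6% of the narrow and 65.3% of the broad regions. Control 1 alone called 25.4% of the narrow regions on chromosome 12, where it alone called 49.9% of all. For broad regions these were 18.1% and 38.0%. Such regions lower the other percentages over all chromosomes more than those on chromosome 12, so the 2 are not on a like base. Regions called in test 1 and test 2 but in no control library, named test-only, numbered 18 among narrow regions, 4.66% of those on chromosome 12, where 1.25% of all narrow regions were. Control-only narrow regions numbered 5, or 1.30%, where 1.25% of all were. Test-only broad regions numbered 33, or 3.61%, where 1.03% of all were, and control-only broad regions numbered 3, or 0.328%, where 1.24% of all were. At a −log10 q of 5 or more the narrow counts were equal, with 5 test-only and 5 control-only regions, each 4.31% of 116 on chromosome 12, where 1.73% and 2.81% of all narrow regions at that threshold were. The broad counts there were 10 test-only and 0 control-only regions, or 6.10% and 0% of 164, where 2.71% and 0.626% of all were. Without control 1, regions called in both test libraries and not in control 2 numbered 18 narrow and 35 broad, and without control 2 those not in control 1 numbered 37 and 190.

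The broad pattern met most often in more than 1 library was a peak in every library but control 1. It held 157 broad regions, 17.2% of those on chromosome 12, where 10.5% of all were, and 21 narrow regions, 5.44%, where 3.82% of all were. Peaks of all 4 libraries met in 20 narrow regions, 5.18%, where 3.86% of all were, and in 17 broad regions, 1.86%, where 3.04% of all were. The regions of control 1 alone weigh on these percentages too, so the higher narrow one is no sign of more sharing on chromosome 12.

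Of the 18 test-only narrow regions, 16 lay on 12q and 12 between 45 and 60 Mb, and 0 lay between 100 and 125 Mb. A broad peak of control 2 covered part of 16 of the 18, and one of control 1 covered part of 1. Those sites were thus called in control 2 when all fragments were counted. The 2 that met no broad peak in any library were chr12:56552055-56552164 on 12q and chr12:8543199-8543284 on 12p.

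The highest placed test-only narrow region was chr12:56694145-56694307 on 12q, where fold enrichment was 12.1 in test 1 and 9.92 in test 2. Second came chr12:49463756-49463877 on 12q, at 10.5 and 7.66, and chr12:27091276-27091396 on 12p, at 6.88 and 5.85. All 3 also met a broad peak in test 1, test 2 and control 2. The lowest placed of the 18, chr12:90103174-90103316, had 5.73 and 3.96, so the regions run down to the weak end of the lists.

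The control-only narrow regions lay mostly beside the centromere, 4 of the 5 between 30 and 40 Mb. The highest placed was chr12:34846903-34846985 on 12p, where fold enrichment was 10.6 in control 1 and 9.88 in control 2, and test 1 as well as both control libraries had a broad peak there. The next was chr12:38035063-38035140 on 12q, at 7.83 and 10.1, with no broad peak in any library. Only chr12:93793090-93793179, at 5.84 and 5.82, lay away from the centromere.

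Test-only broad regions were more evenly spread, with 10 of 33 on 12p, 10 between 45 and 60 Mb and 3 between 100 and 125 Mb. The highest placed was chr12:53845614-53845884, where fold enrichment was 6.69 in test 1 and 4.74 in test 2. Control 2 had a narrow peak at that site. The next without a narrow peak in any library was chr12:1058615-1059089 on 12p, at 5.36 and 4.33. In all, 30 of the 33 met no narrow peak of a control library, and 8 met a narrow peak of a test library. The 3 control-only broad regions were chr12:38124442-38124674, chr12:64589514-64589858 and chr12:66978160-66978784, at fold enrichments of 3.31 to 4.75.

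Among regions of all 4 libraries, chr12:41757447-41757516 had the highest narrow fold enrichment on chromosome 12 in each library, 61.6 and 53.8 in test, against 36.4 and 69.4 in control. The lead was smallest in control 1, where chr12:127650860-127650982 reached 31.5. It is 70 bp long and lay in no broad peak of any library. The highest placed broad region was chr12:133841517-133841897, close to the end of the assembled 12q, at 19.5 and 20.0 in test, against 20.1 and 19.4 in control. Of the 20 narrow regions of all 4 libraries, 6 lay between 30 and 40 Mb and 1 between 45 and 60 Mb. A site in that last stretch, chr12:56511691-56512030, had 10.97 and 8.40 in test, against 5.49 and 5.79 in control, and its recovered background was 0.640 and 0.667 fragments in test, against 0.457 and 0.381 in control.

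The overlap of libraries did not separate by group. The Jaccard index, the bases 2 lists share over the bases either covers, was 0.278 between the narrow lists of test 1 and test 2 on chromosome 12, and 0.118 between control 1 and control 2. Between groups it was 0.238 for test 1 with control 2 and 0.196 for test 2 with control 2, and 0.111 and 0.134 for test 1 and test 2 with control 1. For broad lists test 1 was closest to control 2, at 0.365, then to test 2, at 0.298, and test 2 with control 2 gave 0.276. Every broad pair with control 1 lay between 0.0442 and 0.0633. On the other chromosomes the pairs stood in the same order for both kinds of list. There the broad index was 0.360 for test 1 with control 2 and 0.289 for test 1 with test 2, and 0.0722 to 0.129 for pairs with control 1. On chromosome 12 the broad mean within groups was 0.175 ± 0.175 over 2 pairs, against 0.187 ± 0.158 over 4 pairs between groups (SD).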

How the data were processed

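ATAC-seq peak lists of 2 test and 2 control libraries were used, a narrow and a broad list each, grouped and numbered by the labels. Per the labels' protocols, libraries were made with a commercial tagmentation kit. The build hg19 and the tools MACS2 2.2.7.1, Bowtie2 2.3.5.1, cutadapt 3.2, Picard, edgeR 3.34.1 and deepTools 3.5.1 are listed, per the submitters' processing notes. Per the file headers, MACS2 called peaks in each library on its own, from paired-end fragments with all duplicates kept, no control sample, a q threshold of 0.05, local background over 10000 bp and a genome size of 2.7e+09. Kept duplicates add to the pileup, and without a control sample repeats can be called as peaks. The deposited pileup is a coverage signal, the deposited q-value is on a −log10 scale, and the deposited fold enrichment is a ratio to local background. All are the authors' values, not scaled between libraries. In broad lists they are means over the peak, so the background recovered there is approximate.

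To recover the background, 1 was added to the pileup, the sum was divided by the fold enrichment, and 1 was taken off. Its medians left out the 34 windows of 1 Mb with 5 or more narrow regions of all 4 libraries, 0 of them on chromosome 12. Where a library had several peaks in a merged region, the highest value was used. Named regions were the 10 per class with the highest score, which is the lowest percentile that fold enrichment reached in any of the calling libraries, and any region singled out beyond them was chosen after its values were seen. Named bins were the 3 at each end of the difference in share and in relative background, and other bins or stretches were chosen after their values were seen. The members, lists, rules and bins were chosen with earlier results of these data known. No test between groups was run, since the chromosome was chosen on these calls and 2 against 2 libraries allow 6 assignments. Shares have 95% exact (Clopper-Pearson) intervals, for counting error only. Alternatives were a stricter q, equal list lengths, other overlaps, all contigs, other bins, leaving out 30 to 40 Mb, a replicate block and leaving out each library. Merging was tested on simulated data, where 2000 of 2000 regions were assigned rightly. Genes, promoters and sequences were not analysed, because hg19 tables were not used here. Computing used scipy 1.17.1, pandas 2.3.3 and numpy 2.4.6 in Python 3.11.15, with plots from matplotlib 3.10.9.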

Additional observations from a re-analysis of the deposited data

How the results depend on the processing

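Of 66 values computed under settings other than leaving out a library, 52 kept their direction and lay within 1 SD of the main value (counts within 1.5 times of it). Another 10 moved further and 4 turned round. The SD was between libraries, but between pairs of libraries for Jaccard and between the 2 test ratios for shared sites. For Jaccard it was 0.0902 (narrow) and 0.167 (broad), larger than the main values, so lying within it says little. The 52 include the replicate block, which equals the main value by construction. Of the 52, 9 still differed over 1.5 times. The narrow share difference was 0.908 percentage points at a −log10 q of 5 or more. The narrow relative background was 0.0203 with dense windows kept and 0.0200 over bins with 3 or more peaks, and the broad one 0.0210 over bins with 5 or more. The relative narrow fold enrichment was −0.0441 at the stricter q and −0.0431 without 30 to 40 Mb. Jaccard within minus between groups, 0.0283 for narrow lists and −0.0124 for broad lists, was 0.0447 and −0.00677 at the stricter q, and 0.0499 for narrow lists at equal lengths. The narrow 12p share of chromosome 12 peaks, test minus control, was −5.02 percentage points at a −log10 q of 5 or more and −5.43 at equal list lengths, and 3.44 without 30 to 40 Mb. The broad 12p share became −5.81 at the stricter q. The narrow relative background became −0.0306 over bins with 5 or more peaks. At the stricter q, 5 narrow and 10 broad test-only regions and 5 narrow and 0 broad control-only regions were left, and the relative broad fold enrichment was −0.162. Equal lengths gave 1 control-only broad region and a relative narrow fold enrichment of −0.222. Without 30 to 40 Mb, 1 control-only narrow region was left. Sites of all 4 libraries gave background log2 ratios of 0.18 for narrow and 0.44 for broad sites. A stricter q leaves fewer peaks by construction, and otherwise the cause was not tested.

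Leaving out each library in turn gave these ranges, test minus control. The share of narrow peaks was 0.888 to 2.28 percentage points and of broad peaks 0.986 to 2.56, lowest without control 1. The 12p share was −1.63 to 1.71 for narrow peaks, negative without test 1 or without control 1, and 4.998 to 6.57 for broad peaks. The relative background was −0.00893 to 0.157 for narrow peaks, negative without control 2, and 0.0246 to 0.0777 for broad peaks, lowest without test 1. The relative fold enrichment was −0.115 to −0.0421 for narrow peaks, smallest in size without control 1, and −0.0605 to 0.00909 for broad peaks, positive without control 2 and largest in size without control 1. Jaccard within minus between groups was −0.0568 to 0.156 for narrow peaks, negative without either test library, and −0.154 to 0.245 for broad peaks, positive without control 2. Test-only regions numbered 18 to 84 (narrow) and 35 to 261 (broad), fewest without control 1, and control-only regions 5 to 103 and 6 to 169. Fewer libraries to meet raise these counts by construction. The mean shared-site log2 ratio, 0.29 for narrow and 0.36 for broad sites in the main setting, was 0.25 to 0.33 and 0.27 to 0.35. Without a test library it used the sites that the other test library shares with control 2. Without control 2 it was taken against control 1, so the site sets differ. Control 1 is not in the main setting, and leaving it out was not run.

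With a replicate block, the mean of differences between same-numbered libraries, the share differences were 1.58 for narrow and 1.77 for broad peaks, equal to those without it by construction. The labels do not say that the numbers pair samples. The differences in 12p share, relative background and relative fold enrichment were likewise equal by construction, so the block checks nothing here. It was not run for region counts, Jaccard or shared sites.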
